A study of Mus musculus with 88 samples.

Results

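The Ikaros family holds the 5 zinc finger transcription factor genes Ikzf3, Ikzf1, Ikzf2, Ikzf4 and Ikzf5, which encode Aiolos, Ikaros, Helios, Eos and Pegasus. Their signals were followed in whole blood of lupus-prone SNF1 mice, a cross of SWR and NZB, with and without pristane. Members were all probe sets that the array's annotation assigns to 1 of these genes alone, which gave 10 of 45037 probe sets, 2 for each of 5 genes of the 17097 measured. The family was chosen by values of these same arrays, since Ikzf3 had been taken up for its lower signal in pristane-treated blood at weeks 4, 8 and 14. Differences that involve arrays of those weeks are therefore given as a description, with no adjusted p. Their confidence intervals and counts of calls are printed for completeness and cannot test Ikzf3, since its choice rested on the same values. Tests were kept to differences between groups of weeks 2, 12 and 36. The spread that each test uses was still estimated from all 88 arrays, those of weeks 4, 8 and 14 included. That weeks 2, 12 and 36 had no part in the choice is an assumption on which every adjusted p for a member rests.

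There were 88 arrays in 11 groups of 8. Pristane-SNF1 mice, all female, were injected in the peritoneum with the hydrocarbon oil pristane, which brings on lupus-like autoimmunity, and were sampled 2, 4, 8, 12 and 14 weeks later. Age-matched untreated SNF1 mice were sampled at the same weeks. A further group of untreated female SNF1 mice, taken at an age of 36 weeks and selected for proteinuria, had spontaneous disease. It had no disease-free group of its own age, so age and disease cannot be told apart in it, and the label "week 36" is not on the same scale as the other weeks. Nothing in the labels says that the 8 samples of a group came from 8 separate animals, so p-values measure the spread between samples.

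Proteins of this family bind DNA through zinc fingers near one end and pair with one another through zinc fingers at the other end. Ikaros and Aiolos act in lymphocyte development and are found with the NuRD chromatin remodelling complex, Helios and Eos are best known from regulatory T cells, and Pegasus is the most divergent member. Ikaros is expressed throughout the lymphoid lineage, and Aiolos rises as B cells mature. In whole blood, fewer cells of a type and less RNA per cell cannot be told apart.

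The genes lie on mouse chromosome 11 (Ikzf3, 98464610-98546031, and Ikzf1, 11684962-11772930), chromosome 1 (Ikzf2, 69531207-69687351), chromosome 10 (Ikzf4, 128630839-128669671) and chromosome 7 (Ikzf5, 131388649-131410518) in RefSeq on GRCm38.p6. The RefSeq promoter table used here holds windows at 2 starts of Ikzf1, both inside the annotated gene, and they are shown because the 2 Ikzf1 probe sets differed in opposite directions. Each run covers 250 bases before to 50 after a start on the plus strand, and capitals mark the Ikaros core GGGAA or its reverse complement TTCCC.
Ikzf1, chr11:11685675-11685974: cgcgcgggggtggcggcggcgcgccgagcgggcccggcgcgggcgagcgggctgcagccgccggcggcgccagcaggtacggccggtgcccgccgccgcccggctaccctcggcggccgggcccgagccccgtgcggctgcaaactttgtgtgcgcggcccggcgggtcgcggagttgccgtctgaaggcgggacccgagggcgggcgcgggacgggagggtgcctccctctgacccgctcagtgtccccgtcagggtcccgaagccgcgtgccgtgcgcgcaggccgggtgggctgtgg
Ikzf1, chr11:11689927-11690226: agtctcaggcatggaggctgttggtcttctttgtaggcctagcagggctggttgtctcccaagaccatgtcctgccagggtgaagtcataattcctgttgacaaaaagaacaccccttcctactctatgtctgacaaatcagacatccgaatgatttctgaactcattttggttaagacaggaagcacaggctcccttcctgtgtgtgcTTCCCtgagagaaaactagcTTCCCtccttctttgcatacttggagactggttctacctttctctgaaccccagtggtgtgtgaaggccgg
The upstream window held 0 matches and the downstream window 2, while 62.7% of 32851 RefSeq promoter windows of the same length held at least 1 match. Which start each probe set reports is not given in the sources used here, and a match is a description of the letters alone.

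Signals are log2 values from the robust multi-array average (RMA), and a difference of 1 is a 2-fold change. Over all deposited values the median was 3.89, and array interquartile ranges ran from 2.74 to 3.78. Of the 10 probe sets, 7 had a mean signal above the median probe set. Below it were both probe sets of Ikzf4 and 1421643_PM_at of Ikzf2. The probe set with the higher mean is called the lead of its gene. The arrays held bright erythroid genes (mean log2 signal of 5 genes from 9.72 to 10.4 over the group means) and platelet genes (6 genes, 10.1 to 11.1). Among blood markers, 8 of 8 measured neutrophil genes were higher in pristane-treated than in untreated mice at both week 2 and week 12, with median differences of 1.82 and 1.91.

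Ikzf3 (Aiolos) was lower in pristane-treated blood at each of the 5 weeks on its lead probe set, 1453378_PM_at. At week 14 the lowest, median and highest signals were 3.67, 4.76 and 6.13 in pristane-treated mice, against 6.29, 7.03 and 7.53 in untreated mice. All 8 pristane-treated samples were below every untreated sample. The mean difference was -2.15 (95% confidence interval -2.70 to -1.60), or 4.44-fold lower. Under 10 alternative settings it ranged from -2.15 to -1.62, so the value given is at the large end. Complete separation downwards was seen at week 14 for 1.79% of all probe sets.

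At week 8 the same probe set ran from 4.73 through a median of 5.04 to 5.85 in pristane-treated mice, against 5.97, 6.56 and 7.30 in untreated mice. The 2 groups again did not overlap, as was so for 0.147% of probe sets in that direction, and the difference was -1.47 (-2.02 to -0.91). At week 4 the signals were 4.08, 5.11 and 6.20 in pristane-treated mice and 4.87, 6.56 and 7.34 in untreated mice. These groups overlapped, with 3 of 8 pristane-treated samples below all untreated ones and a difference of -1.23 (-1.79 to -0.68). These 3 weeks are the ones that brought the gene up, and nothing is read from them beyond their size.

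At week 2 the lead probe set ran from 5.24 through 6.16 to 6.39 in pristane-treated mice and from 6.11 through 7.33 to 7.43 in untreated mice. The pristane-treated mean was 1.99-fold lower (difference -0.99 ± 0.28, SE; limma adjusted p = 0.0282), with 4 of 8 samples below all untreated ones. At week 12 it ran from 5.04 through 5.89 to 6.82 in pristane-treated mice and from 5.94 through 6.49 to 7.19 in untreated mice. The difference of -0.56 (-1.11 to -0.00) did not pass the test (adjusted p = 0.363). The difference between the week 12 and week 2 effects was 0.43 (-0.35 to 1.22; adjusted p = 0.796), so the data do not establish that the effect differed between these weeks.

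The second Ikzf3 probe set, 1441088_PM_at, was also lower in pristane-treated mice at every week, by less. At week 2 it ran from 3.81 through 4.20 to 4.90 in pristane-treated mice and from 4.34 through 4.98 to 5.87 in untreated mice, with 6 of 8 pristane-treated samples below all untreated ones. This was a fall of 1.68-fold (difference -0.75 ± 0.22; adjusted p = 0.0361), and the call was lost when only those 2 groups were fitted (adjusted p = 0.0743). At week 12 the difference was -0.39 (adjusted p = 0.453). At weeks 4, 8 and 14 it was -0.29, -0.52 and -0.26, so the 4.44-fold difference of the lead probe set at week 14 stood beside a 1.20-fold one here. The 2 probe sets correlated at r = 0.41 over the 88 arrays and at 0.22 after each group's mean was taken off, a description of arrays that share groups.

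**Figure D1:**
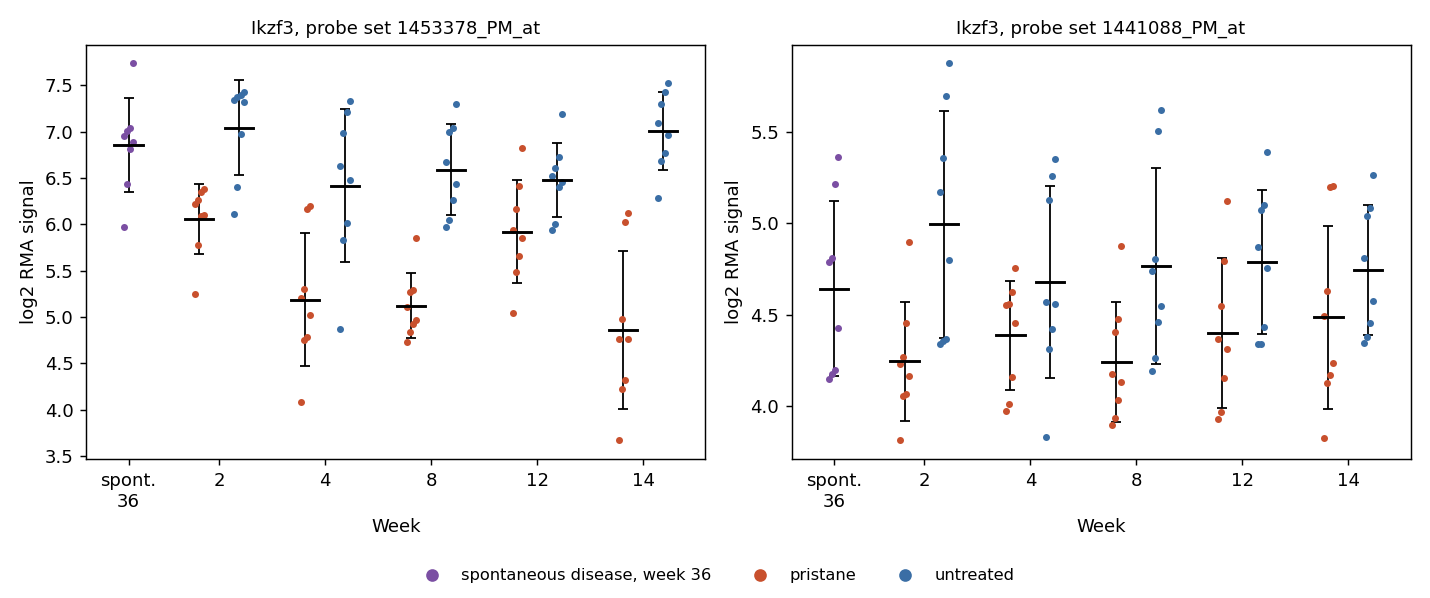
Log2 RMA signal of the 2 Ikzf3 probe sets in every sample, by week, with spontaneous disease at the left and pristane left of untreated at each week. Bars are group means and whiskers 1 SD (n = 8). On 1453378_PM_at the pristane and untreated points do not overlap at weeks 8 and 14, while on 1441088_PM_at they overlap at every week.

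Ordered by mean, the lead Ikzf3 signal placed all 6 groups without pristane above all 5 with it. Since Ikzf3 was taken up for its lower signal at weeks 4, 8 and 14, the places of those groups are no independent result. Untreated week 2 was highest at 7.05 ± 0.51 (SD), followed by untreated week 14 at 7.01 ± 0.42 and spontaneous disease at 6.86 ± 0.51. Untreated weeks 8, 12 and 4 followed at 6.59, 6.48 and 6.42. The pristane groups came next, with week 2 at 6.05 ± 0.38, week 12 at 5.92 ± 0.56, week 4 at 5.19 ± 0.72, week 8 at 5.12 ± 0.35 and week 14 at 4.86 ± 0.86. Of the 10 gaps between neighbours, only the one between pristane weeks 12 and 4 (0.73) was wider than the pooled within-group SD of 0.57. The pristane-treated mice of week 14 were 1.06 below those of week 12, given without a test. Untreated mice differed by -0.56 at week 12 against week 2 (adjusted p = 0.378).

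In spontaneous disease the lead Ikzf3 signal lay among those of the untreated groups. It ran from 5.97 through 6.93 to 7.74, overlapping the untreated samples of weeks 2 and 12, which together ran from 5.94 to 7.43. The difference from the mean of those 2 untreated groups was 0.09 (-0.39 to 0.57; adjusted p = 0.847), and its sign turned under 3 settings. Pristane week 12 was 0.94 below spontaneous disease (adjusted p = 0.0604), with adjusted p from 0.0113 to 0.232 under 9 alternatives, 3 of which passed. On 1441088_PM_at the spontaneous disease difference from untreated mice was -0.25 (adjusted p = 0.448).

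B cell markers were lower by median in pristane-treated mice at weeks 2 and 12, but few passed the test. Of 10 listed genes, 9 were measured, and 1 fell at week 2 and 3 at week 12, with none rising and median differences of -0.51 and -0.44, beside -0.02 and 0.01 over all genes. The mean log2 signal of the 9 genes ran from 7.80 to 9.01 in pristane-treated and from 8.83 to 9.42 in untreated mice at week 2, and from 8.23 to 8.86 in pristane-treated and from 8.61 to 9.43 in untreated mice at week 12. At week 14 the ranges were 7.81 to 9.30 in pristane-treated and 8.92 to 9.61 in untreated mice. They also overlapped at week 8, at 7.45 to 8.83 in pristane-treated and 8.21 to 8.98 in untreated mice. In pristane week 4, replicate 1 had a B cell score of 9.32, above the highest untreated score of that week (9.26) and the median of its group (8.03). Leaving that sample out can move only the week 4 differences, which have no test, so most of the 130 member differences could not change. None changed its label by the criteria given below, and 129 kept their sign. Over the 88 arrays, Ikzf3 correlated with the B cell score at r = 0.67, and at 0.46 after group means were taken off. The plasmacytoid dendritic cell score of 3 genes gave 0.72 and 0.46, the NK cell score 0.51 and 0.12, the neutrophil score -0.62 and 0.07, the erythroid score -0.54 and -0.22, the platelet score -0.49 and -0.28, and the array interquartile range 0.43 and 0.43. Of 7 NK cell genes, 2 fell at week 2 (median difference -0.67) and 0 at week 12, and their score at week 2 ran from 5.59 to 6.24 in pristane-treated and from 6.05 to 6.99 in untreated mice. Of 9 measured T cell genes, 0 passed at week 2 and 2 fell at week 12. The part of any of these in the Ikzf3 difference was not tested.

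**Figure D2:**
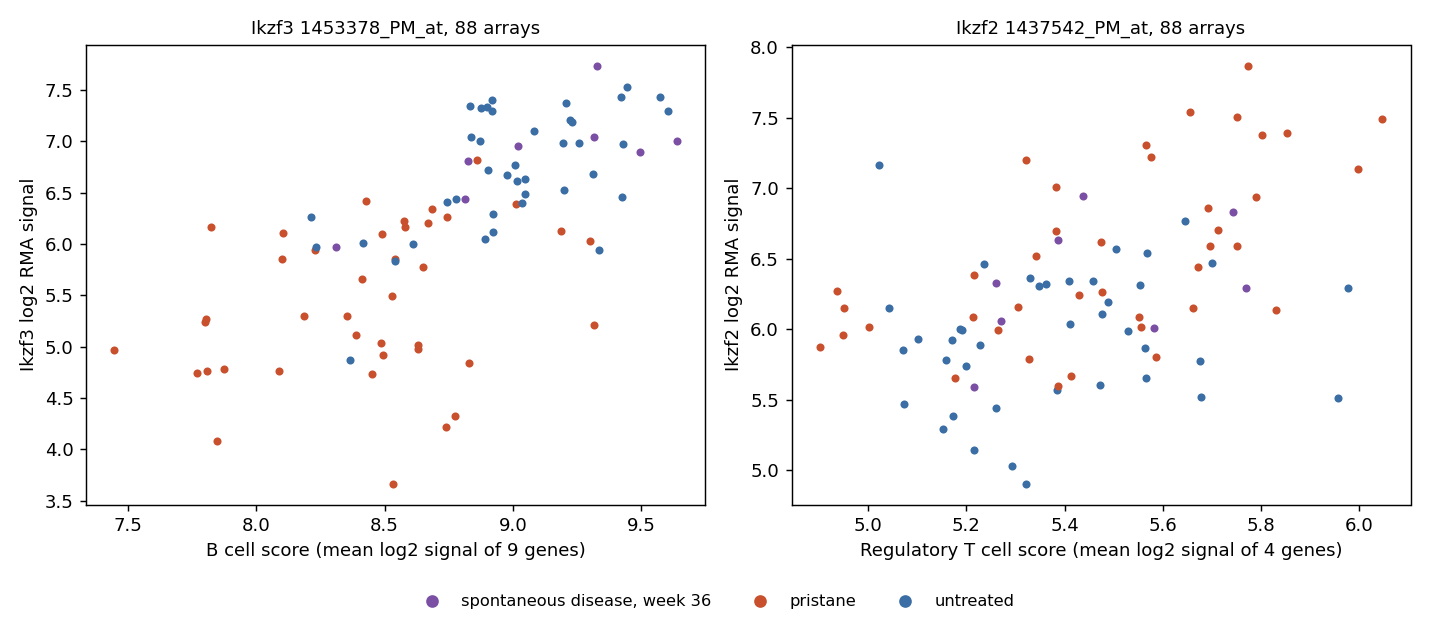
Left, Ikzf3 (1453378_PM_at) against the B cell score, and right, Ikzf2 (1437542_PM_at) against the regulatory T cell score, with 1 point per array (88 arrays) on log2 RMA scales. The pristane points lie towards low B cell score and low Ikzf3, and the right panel is a looser cloud (r = 0.67 left, 0.46 right).

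The 10 genes most like Ikzf3, out of 17092, were named by Pearson's r with its lead probe set over the 88 arrays. Akap11, which encodes a protein kinase A anchoring protein, came first at 0.82, and the tenth, Kansl1, was at 0.74. Between them were 4632427E13Rik, the nuclear RNA Malat1, the MHC class II gene H2-Aa, Tnfrsf13c (the BAFF receptor), Luc7l3, Spib (an Ets factor of B cells and plasmacytoid dendritic cells), Tnfrsf13b (TACI, a receptor for BAFF and APRIL) and Sdc4. After group means were taken off, Akap11 was again first, at 0.63, and of the 10 only it and H2-Aa stayed among the first 10.

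Ikzf2 (Helios) moved the other way on its lead probe set, 1437542_PM_at, and did so most at week 12. The signals there were 6.27, 7.21 and 7.87 (lowest, median, highest) in pristane-treated mice, against 5.03, 6.02 and 6.31 in untreated mice. All but 1 of the 8 pristane-treated samples were above every untreated one. Ikzf2 was 2.35-fold higher (difference 1.23 ± 0.23; adjusted p = 0.000235), the 1 family call of 10 at that week, where 2.94% of all probe sets passed. All 10 alternative settings gave a difference between 1.21 and 1.39 with an adjusted p of at most 0.00309.

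At week 2 Ikzf2 did not pass the test, where signals of 5.65, 5.99 and 6.62 in pristane-treated mice met 5.29, 5.76 and 6.29 in untreated mice (difference 0.31, -0.14 to 0.77; adjusted p = 0.522). Pristane week 12 was above pristane week 2 by 1.08 (adjusted p = 0.00526), with 7 of 8 samples above all of week 2, and untreated mice differed by 0.16 between the same weeks (adjusted p = 0.826). The interaction of treatment and week, 0.92 (0.27 to 1.57), did not pass after adjustment (adjusted p = 0.357). These comparisons share samples. At weeks 4, 8 and 14 the differences were 0.27, 0.77 and 0.32, without a test.

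By group mean, Ikzf2 was highest in pristane week 12 (7.13 ± 0.49), pristane week 8 (6.79 ± 0.53) and pristane week 14 (6.62 ± 0.59), and lowest in untreated week 2 (5.74 ± 0.31). No gap between neighbouring groups exceeded the pooled SD of 0.47. Spontaneous disease stood at 6.34 ± 0.45, which was 0.51 above untreated mice of weeks 2 and 12 (adjusted p = 0.125). Pristane week 12 was 0.80 above spontaneous disease (0.34 to 1.26; adjusted p = 0.0508), with adjusted p from 0.00262 to 0.0767 under 9 alternatives, 6 of which passed. The dim second probe set, 1421643_PM_at, ran from 2.38 to 3.59 in pristane-treated and from 2.27 to 3.22 in untreated mice at week 12 (difference 0.21; adjusted p = 0.614).

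Of 4 regulatory T cell markers, all measured, 0 passed the test at week 2 or week 12. Their mean log2 signal ran from 4.94 to 5.77 in pristane-treated and from 5.04 to 5.55 in untreated mice at week 12. It correlated with Ikzf2 at r = 0.46 over the arrays and 0.41 within groups. The neutrophil score gave 0.51 and 0.14, the plasma cell score 0.48 and 0.25, the monocyte score 0.46 and 0.31, and the array interquartile range 0.31 and 0.44. At week 12 the neutrophil score ran from 9.49 to 10.39 in pristane-treated and from 7.59 to 8.43 in untreated mice. The part of any of these in the Ikzf2 difference was not tested. Chosen after their values were seen, the genes most like Ikzf2 over the 88 arrays were Mcpt8, a basophil protease (r = 0.65), and Dhx58, an RNA helicase of the interferon response (0.62), which fell to ranks 1099 and 172 once group means were taken off.

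**Figure D3:**
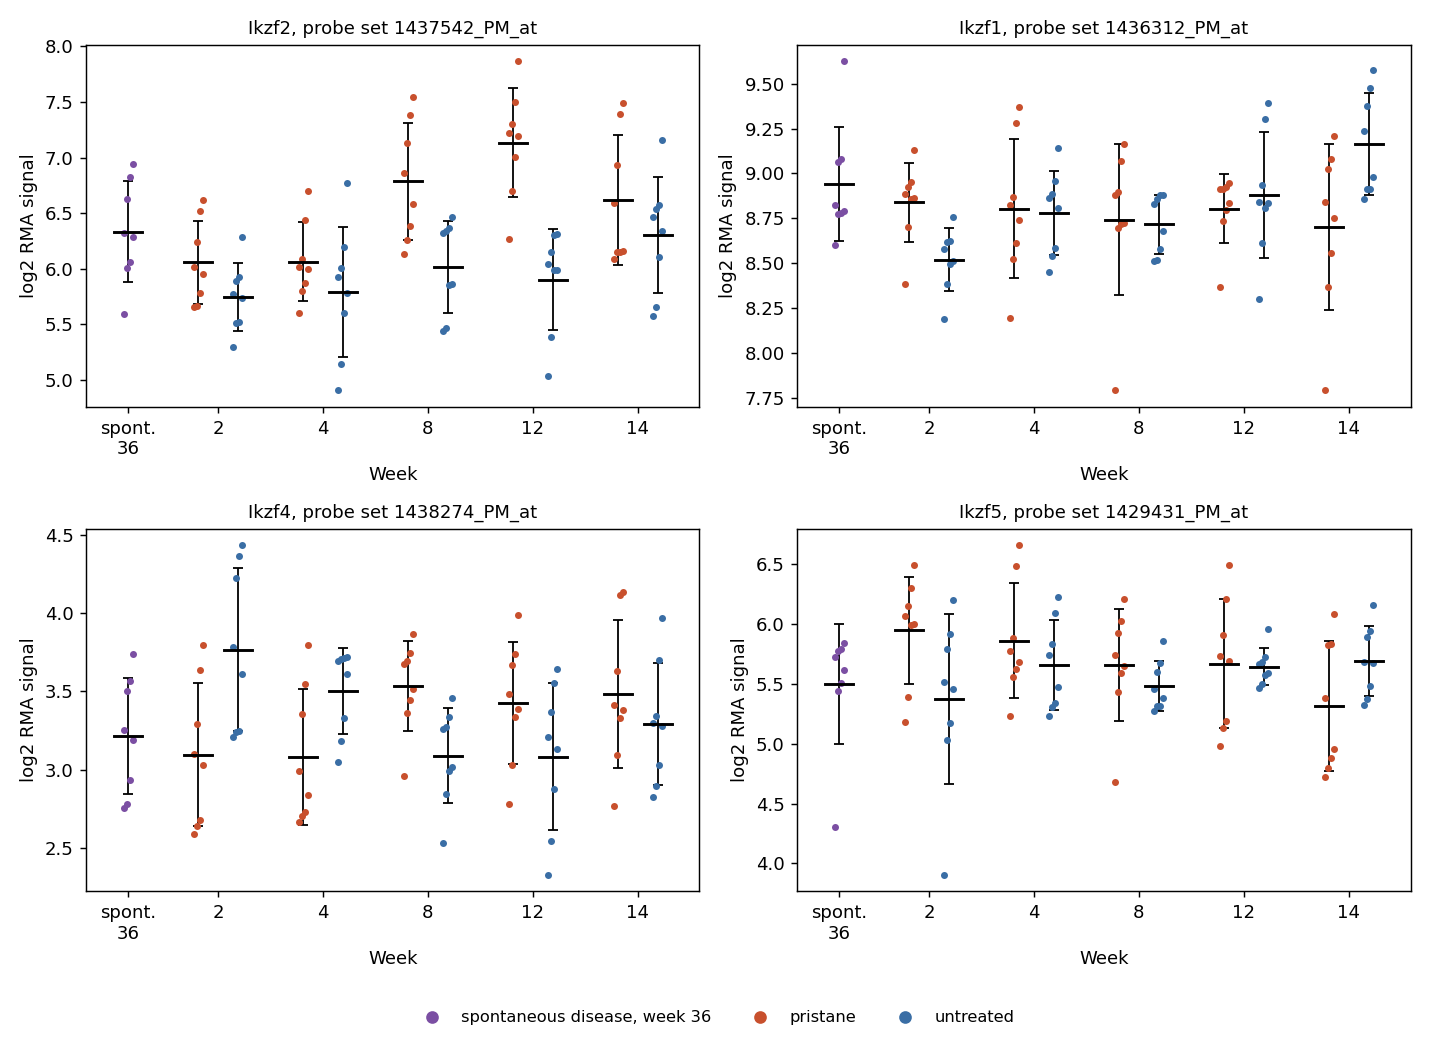
Log2 RMA signal of the lead probe sets of Ikzf2, Ikzf1, Ikzf4 and Ikzf5 in every sample, by week, with spontaneous disease at the left and pristane left of untreated. Bars are means and whiskers 1 SD (n = 8), and each panel has its own axis. Ikzf2 stands highest in pristane week 12 (mean 7.13), and for Ikzf1 the highest mean is that of untreated week 14 (9.16).

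Ikzf1 (Ikaros) had opposite differences on its 2 probe sets at week 14. The lead, 1436312_PM_at, ran from 7.79 through 8.80 to 9.21 in pristane-treated mice and from 8.86 through 9.11 to 9.57 in untreated mice, a difference of -0.46 (-0.77 to -0.16). The second, 1421303_PM_at, ran from 3.89 through 4.36 to 4.91 in pristane-treated mice and from 3.55 through 4.03 to 4.29 in untreated mice, a difference of 0.42 (0.10 to 0.74). Both pairs of groups overlapped, with 5 of 8 pristane-treated samples beyond all untreated ones in each. Under 10 alternatives the lead ranged from -0.51 to -0.18 and the second from 0.22 to 0.59, so neither turned sign. With the array interquartile range as a covariate they were -0.21 and 0.23, and against untreated week 12 they were -0.18 and 0.22.

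Over all arrays the 2 Ikzf1 probe sets correlated at r = -0.39, and at -0.34 within groups. The array interquartile range, highest on average in untreated week 14 (3.53, against 3.25 in pristane week 14), correlated with the lead at 0.65 and with the second at -0.50, and its part was not tested. At weeks 2 and 12, neither passed. The lead differed by 0.32 at week 2 (adjusted p = 0.28), with 6 of 8 pristane-treated samples above all untreated ones, and by -0.07 at week 12 (adjusted p = 0.92). The second differed by 0.00 and 0.02 (adjusted p = 0.999 and 0.986), and at week 4 by 0.56 without a test.

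Ikzf4 (Eos) was dim, with mean signals of 3.32 and 2.58. At week 2 probe set 1438274_PM_at ran from 2.59 through 3.07 to 3.79 in pristane-treated mice and from 3.21 through 3.70 to 4.43 in untreated mice. With 5 of 8 pristane-treated samples below all untreated ones, it fell by 0.67 (1.59-fold; adjusted p = 0.0417), and the call was lost under quantile normalization (adjusted p = 0.0876) and when only those 2 groups were fitted (0.113). The other probe set, 1460664_PM_at, ran from 2.29 through 2.79 to 3.50 in pristane-treated and from 2.24 through 2.38 to 2.69 in untreated mice, a difference of 0.44 in the opposite direction (adjusted p = 0.0911). That difference passed with quantile normalization (adjusted p = 0.0228), under which the fall was lost, with the array interquartile range as a covariate (0.0147) and with the replicate block (0.0314). At week 12 the differences were 0.35 and 0.03 (adjusted p = 0.476 and 0.971). The interaction of 1.02 for 1438274_PM_at did not pass (adjusted p = 0.196). On this probe set untreated week 2 had the highest of the 11 group means (3.76). Pristane week 2 (3.10) was close to untreated weeks 8 and 12 (3.09 and 3.08), and below untreated weeks 4 and 14 (3.50 and 3.29). Untreated week 12 against week 2 differed by -0.68 without a call. That difference passed with the array interquartile range as a covariate (adjusted p = 0.0325) and with array weights (0.0294).

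Ikzf5 (Pegasus) gave no call in the tested comparisons with equal array weights. At week 2, 1429431_PM_at ran from 5.18 through 6.04 to 6.50 in pristane-treated and from 3.91 through 5.49 to 6.20 in untreated mice (difference 0.57, adjusted p = 0.155), and it passed with array weights (0.66, adjusted p = 0.0279). On 1436554_PM_at the difference was 0.61 (adjusted p = 0.19). At week 12 they were 0.02 and -0.36 (adjusted p = 0.988 and 0.618). Pristane week 12 was 0.75 below pristane week 2 on 1436554_PM_at, with 7 of 8 samples below all of week 2 (adjusted p = 0.142). At week 14 the differences were -0.38 and -0.33, without a test.

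**Figure D4:**
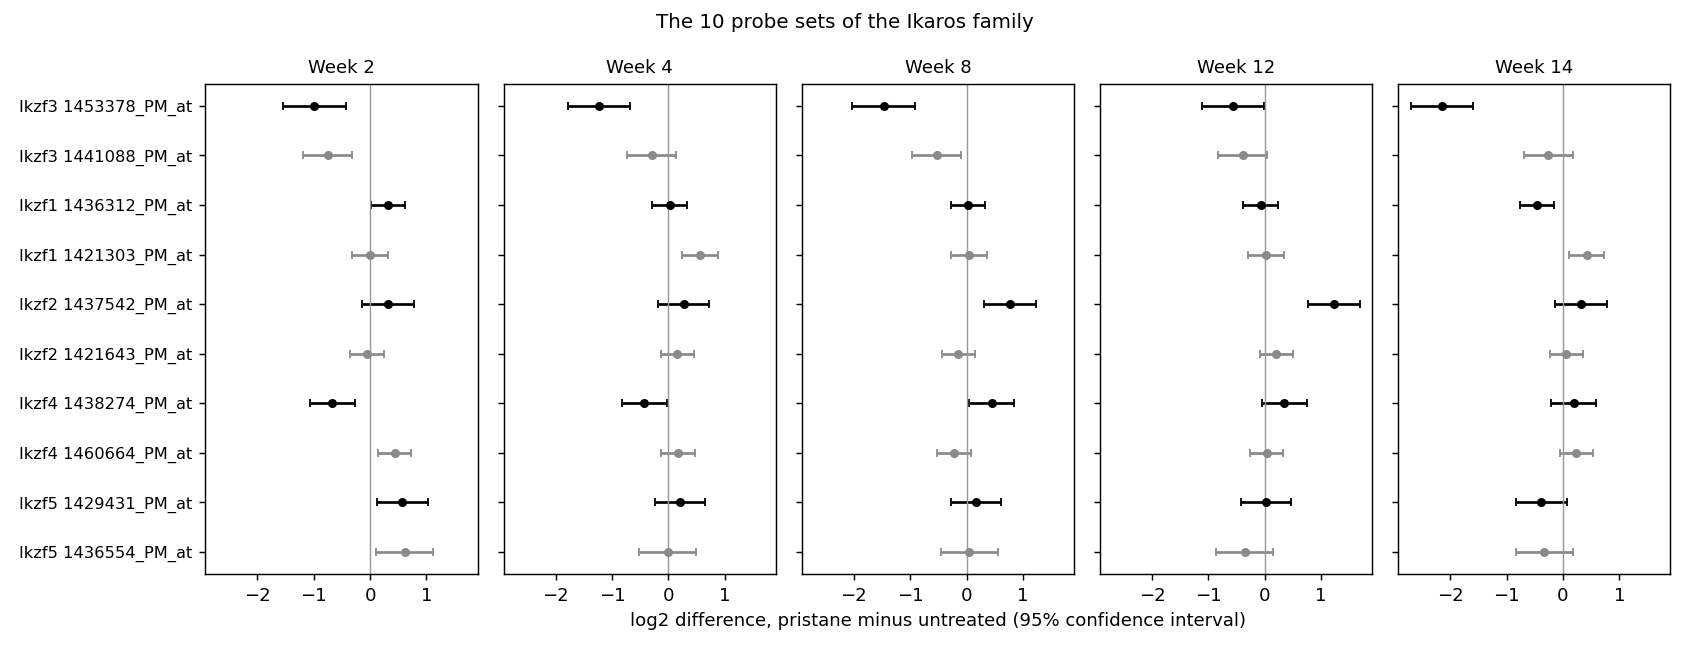
Log2 difference, pristane minus untreated, for each of the 10 probe sets at weeks 2, 4, 8, 12 and 14, with 95% confidence intervals. Black points are lead probe sets and grey points the second ones. Ikzf3 lies below 0 in every panel, reaching -2.15 at week 14, and the lead Ikzf2 probe set lies above 0 in every panel, reaching 1.23 at week 12.

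Counted over the family, at an adjusted p under 0.05, 3 of 10 probe sets passed at week 2, beside 3.2% of all probe sets. They were 1438274_PM_at and both of Ikzf3, the gene for which the family was taken up, and all were lower. On all 3, untreated week 2 had the highest of the 11 group means (7.05, 4.99 and 3.76 on the lead Ikzf3, second Ikzf3 and Ikzf4 probe sets). With only those 2 groups fitted, 1 call was left, that of the lead Ikzf3 probe set. At week 12, 1 of 10 passed (Ikzf2), beside 2.94% of all. At the weeks that brought the family up, counts cannot serve as a test, since Ikzf3 was chosen for its lower signal there. They were 2 of 10 at week 4 (2.36% of all), 1 of 10 at week 8 (2.24%) and 3 of 10 at week 14 (21.4%), from which nothing is read. Pristane week 12 against week 2 gave 1 of 10 (Ikzf2, 1.02% of all). Pristane week 14 against week 12 gave 1 of 10 (the lead Ikzf3 probe set, 3.23%), from which nothing is read either, since it uses week 14. The median difference over the 10 was 0.16 at week 2 and 0.02 at week 12, against -0.03 and 0.00 over all probe sets.

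With limma, 0 of 10 passed in each of the other comparisons. Spontaneous disease against untreated mice of weeks 2 and 12 had 1 at an unadjusted p under 0.05, as had 9286 of all 45037 probe sets. Pristane week 12 against spontaneous disease had 3, beside 7819 of all probe sets at that unadjusted p. Untreated week 12 against week 2 had 3, beside 5815. The difference between the week 12 and week 2 effects had 3, beside 3938. After adjustment, 3.51%, 1.59%, 0.255% and 0.00888% of all probe sets passed in these comparisons, in the same order. Counts of 0 also stood for untreated week 14 against week 12 (0.0511%) and for spontaneous disease against untreated week 14 (0%), both without a test here. With array weights, spontaneous disease against untreated mice, untreated week 12 against week 2 and untreated week 14 against week 12 each gave 1, and pristane week 12 against spontaneous disease gave 3.

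Of 17 NuRD and co-repressor genes, 16 were measured and 0 passed at week 2 or 12. Among them at week 12 were Ctbp2, a co-repressor (0.49; adjusted p = 0.345), and Mbd3, a NuRD subunit (-0.27; adjusted p = 0.412). All 5 genes of the cereblon ligase, which in human cells degrades Ikaros and Aiolos when lenalidomide is bound, were measured and 0 passed, with Crbn itself at 0.17 at week 12 (adjusted p = 0.888). Median differences of both lists at week 12 were -0.17 and 0.06, beside 0.01 over all genes.

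Of 26 lymphoid regulators, 25 were measured. Tbx21 (T-bet, -0.97; adjusted p = 0.0108), Spib (-0.80; adjusted p = 0.0281) and Eomes (-0.79; adjusted p = 0.0273), the last known from NK cells and cytotoxic T cells, fell at week 2 and 0 rose. At week 12 the progenitor factor Myb rose by 0.85 (adjusted p = 0.00961) and 0 fell. Of 20 genes tied to the family in lymphocytes, 17 were measured and 0 passed at week 2. At week 12 Rag1, of the V(D)J recombinase, rose by 1.11 (adjusted p = 0.00493) and Cd8a, a T cell coreceptor, fell by 1.33 (adjusted p = 0.00191). Among all genes, 2.29% rose and 1.29% fell at week 2, and 2.7% rose and 1.06% fell at week 12.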

How the data were processed

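Whole-blood RNA was extracted with Trizol, purified on columns with DNase, biotin-labelled and hybridised to Affymetrix plates. The authors normalised probe intensities by the robust multi-array average (RMA), and the deposited values are on its log2 scale, 1 per probe set and array. The submitters' processing notes also name Partek. The number of arrays limits the precision, no read depth applies, and no batch is given in the labels.

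Of 45141 probe sets, 104 controls were left out. Groups came from the labels. The fit was a group-means model in limma 3.58.1 (R 4.3.3) on all 88 arrays and 11 groups, with 77 residual and 5.81 prior degrees of freedom and Benjamini-Hochberg adjustment over 45037 probe sets within each comparison. A call is an adjusted p under 0.05. No filter on dim signals was used. The pipeline was tested on simulated data. All member probe sets are named, with the 10 genes most like Ikzf3 by r and, for each gene list, those of the 4 members with the largest moderated t at week 12 that are described. Other list members are named where they passed the test. The members and lists were chosen with earlier results of these data known. The B cell list and the list of genes tied to the family share Cd22. Alternatives covered scaling, a filter, array weights, covariates, the variance prior, the samples fitted, the control group and the replicate number as a block.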

Additional observations from a re-analysis of the deposited data

Results flagged for a closer look

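Within the 110 groups of 8 signals (10 probe sets in 11 groups), 8 held a sample far from the others by Dixon's criterion, which chance meets in about 1 group in 20. On Ikzf1 1436312_PM_at, spontaneous disease replicate 3 stood high at 9.63 (nearest other 9.08), and pristane week 12 replicate 3 and pristane week 8 replicate 8 stood low at 8.37 (nearest 8.73) and 7.79 (nearest 8.70). On Ikzf2 1421643_PM_at, untreated week 14 replicate 8 was at 1.97 (nearest 2.51). On Ikzf4 1460664_PM_at, untreated week 8 replicate 3 was at 1.97 (nearest 2.59). On Ikzf5 1429431_PM_at, spontaneous disease replicate 8 was at 4.30 (nearest 5.44). On Ikzf5 1436554_PM_at, pristane week 14 replicate 7 was at 6.36 (nearest 5.15) and untreated week 12 replicate 8 at 4.86 (nearest 5.38). Neither Ikzf3 probe set nor the lead Ikzf2 probe set had such a sample.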

How the results depend on the processing

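Of 1171 differences recomputed under the alternatives, 1128 kept their direction and side of the threshold where there was a test, or moved by less than the spread between replicates where there was none. The filter, the variance prior, the replicate block and the fit of only the groups compared leave each difference itself unchanged. Untested differences were therefore bound to be kept under these, and tested ones could change only in their adjusted p. In 22 tested differences the sign turned, none called in either fit (lowest adjusted p 0.269), and in 19 untested ones too. With the interquartile range as a covariate, these were 1421303_PM_at at -0.035 (week 12), -0.052 (interaction) and 0.011 (untreated week 12 against 2), 1460664_PM_at at -0.034 (week 12), -0.048 (pristane week 12 against spontaneous disease) and 0.15 (spontaneous disease against untreated), 1436312_PM_at at 0.063 (pristane week 12 against spontaneous disease), and the lead Ikzf3 set at -0.17 and 1436554_PM_at at 0.020 (both spontaneous disease against untreated). With the 75th percentile subtracted, they were the lead Ikzf3 set at -0.018 (spontaneous disease against untreated), 1436312_PM_at at 0.0032 and 1436554_PM_at at 0.054 (both pristane week 12 against spontaneous disease) and 1421643_PM_at at -0.0028 (untreated week 12 against 2). With quantile normalization, they were the lead Ikzf3 set at -0.042 and 1460664_PM_at at 0.066 (both spontaneous disease against untreated) and 1421303_PM_at at -0.025 (interaction). With array weights, they were 1421303_PM_at at -0.014 (week 2) and 1429431_PM_at at 0.095 (spontaneous disease against untreated). With another control group, they were 1421303_PM_at at -0.070, 1436312_PM_at at 0.28 and 1438274_PM_at at -0.34 (pristane week 12 against untreated week 2), and 1438274_PM_at at 0.13 (spontaneous disease against untreated week 12). Of 121 recomputed counts of calls, 100 stayed within 1.5 times. The cause of the following changes was not tested. Pristane week 12 against spontaneous disease had 0 calls and gained 1 with the 75th percentile subtracted, with the interquartile range as a covariate or with quantile normalization, 2 with dim probe sets left out or with the replicate block, and 3 with array weights. There the lead Ikzf2 difference of 0.80 became 0.94, 1.03 and 0.91 under the first 3 and 0.82 with array weights, stayed 0.80 with the filter and the block, and passed in all 6, while the lead Ikzf3 difference of -0.94 passed at -0.94 with the filter and the block and at -0.97 with array weights. Against untreated mice of week 2, pristane week 12 gave 2 calls, with the lead Ikzf3 probe set at -1.12. Array weights gave 1 call in spontaneous disease against untreated mice (Ikzf2, 0.49) and 1 in untreated week 14 against week 12. They also gave 1 in untreated week 12 against week 2 (1438274_PM_at at -0.72), as did the interquartile range (the same probe set at -0.80). Fitting only the groups compared left 1 call at week 2, 1 at week 4 and 0 in pristane week 14 against week 12, and the 75th percentile left 1 at week 4. Week 8 gained a second call (2) with the 75th percentile, interquartile range, array weights, filter, quantile normalization and replicate block. Nothing is read from the counts that involve weeks 4, 8 or 14. Of the 10 genes most like Ikzf3, 2 remained with group means taken off. The main fit did not pair samples that share a replicate number. Their r ran from -0.29 to 0.55 over 40 pairs, with 13 above 0.1 and 8 best matched to their own number. Mean r was low but above that of other pairs at every week, for instance 0.087 against -0.012 at week 4. A pairing is therefore not excluded, and the block results above are given only as a check. Dim signals limit Ikzf4 and the second Ikzf2 probe set.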
